A study of Mus musculus with 8 samples.

Results

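Tubular injury genes are transcripts that kidney tubules switch on when they are damaged, and 10 of them were examined here in sorted distal convoluted tubules (DCT), the nephron segment that reabsorbs sodium chloride through the thiazide-sensitive cotransporter: Havcr1, Lcn2, Spp1, Krt8, Krt18, Krt20, Vcam1, Clu, Sox9 and Cdkn1a. They were chosen by name, and each was read from its brightest probe set with exactly 1 gene symbol in the platform annotation. Of the 10, 9 had such a probe set, 1 each, among 18782 genes measured in that way, and Spp1 (osteopontin) was not analysed here. The arrays came from male C57/Bl6 mice of 8 weeks, 4 labelled TBC1D4-deficient and 4 labelled TBC1D4 wild-type. All 8 carried the PV-EGFP transgene (wt/tg), in which the parvalbumin promoter drives EGFP, a promoter that is active in the early part of the DCT, and the fluorescent tubules were picked by COPAS, a sorter for large particles. TBC1D4 is a Rab GTPase-activating protein of the insulin pathway, and the comparison asks what changes in the DCT without it. The labels used here state neither how the Tbc1d4 gene was disrupted nor whether each array came from its own mouse.

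Injured tubule cells lose their transport function, flatten and change their gene programme. KIM-1, the product of Havcr1, appears on the surface of damaged proximal tubule cells, and NGAL, the product of Lcn2, is released by distal segments, so both are used as markers of kidney injury. Keratins, a cell cycle inhibitor (Cdkn1a), a progenitor transcription factor (Sox9) and an adhesion molecule (Vcam1) mark later steps of damage, repair or failed repair.

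The deposited values were probe set intensities on a common scale, and all levels below are log2 of these intensities. Column medians were 8.41 to 9.03 in linear units, and arrays correlated at 0.993 to 0.997. The number of arrays limits the precision. Tbc1d4 stood at 6.58 to 6.94 in the wild-type and at 2.21 to 2.72 in the TBC1D4-deficient arrays, so the arrays matched their labels. No detection call was used, so 1181 probe sets of olfactory and vomeronasal receptors, genes with no known role in the tubule, served as a reference for a dim probe set. Their 95th percentile was 2.47, called the receptor level below. All 14 measured DCT markers lay above it, and Slc12a3, the thiazide-sensitive cotransporter, Calb1, a calcium-binding protein, and the kinase Wnk1 averaged 11.49, 11.12 and 10.97 in wild-type arrays. Markers of other segments were also present, with all 17 of the proximal tubule, all 8 of the thick ascending limb, all 8 of the connecting tubule and principal cells and all 8 of intercalated cells above the receptor level. Most of these were lower in the TBC1D4-deficient arrays on average, with 0 past a limma adjusted p of 0.05: the count below 0 was 17 of 17 for the proximal tubule, 8 of 8 for connecting tubule and principal cells (median log2 difference -0.16), 7 of 8 for intercalated cells (median -0.22) and 5 of 8 for the thick ascending limb (median -0.06). The part of these cells in the values of the injury genes was not tested.

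None of the 9 injury genes differed between genotypes at a limma adjusted p below 0.05 over 23039 probe sets, and the adjusted p of each was 0.9999. Of all probe sets, 0.00434% (only Tbc1d4) passed that threshold. At an unadjusted p below 0.05 the count was 0 of the 9 genes, against 2.9% of all probe sets. Of the 9 genes, 5 lay above and 4 below 0 in the TBC1D4-deficient tubules, with a median log2 difference of 0.02, beside -0.0017 for all probe sets. Among the 6 genes above the receptor level, the 95% intervals of Krt8, Krt18, Clu and Sox9 stayed within 1.5-fold in either direction. Those of Lcn2 and Cdkn1a reached 1.63-fold and 1.53-fold higher in the TBC1D4-deficient tubules. By the same bound, the intervals of 97.4% of all probe sets stayed within 1.5-fold, against 7 of the 9 genes. The sample descriptions carry numbers whose meaning is not stated, and because each of the sets 5 to 8 and 9 to 12 holds 2 arrays per genotype, differences within these sets are given too. A second number in the descriptions, also of unstated meaning, falls in 2 ranges. The lower range holds 3 TBC1D4-deficient and 1 wild-type array and the upper range the reverse, so the range and the genotype are partly mixed and their contributions cannot be cleanly told apart. In bulk tubules, fewer cells of a type and less RNA per cell cannot be told apart.

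**Figure D1:**
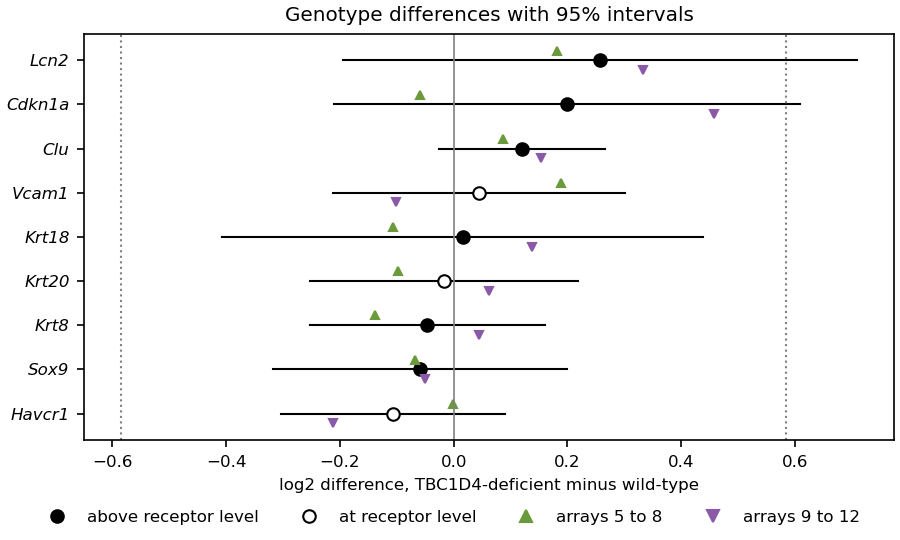
Log2 difference between TBC1D4-deficient and wild-type arrays (x axis) for the 9 injury genes (y axis). Circles are the limma estimates from 4 against 4 arrays, filled where the gene's mean lies above the receptor level, lines are 95% intervals, triangles are the differences within the arrays numbered 5 to 8 and 9 to 12, and dotted lines mark 1.5-fold; only the intervals of Lcn2 and Cdkn1a cross a dotted line.

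Havcr1, Vcam1 and Krt20, which mark injured proximal tubule cells, were not above the receptor level in any of the 8 arrays, while the means of the other 6 genes were. Havcr1 encodes a receptor for phosphatidylserine by which injured cells take up dead neighbours. It was at 2.08, 2.11, 1.96 and 2.16 in TBC1D4-deficient replicates 1 to 4 and at 2.27, 2.17, 1.96 and 2.34 in wild-type replicates 1 to 4. The groups overlapped, the highest array was wild-type, and the mean of Havcr1 exceeded 87.6% of the receptor probe sets. Its log2 difference was -0.11 (95% interval -0.30 to 0.09).

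Vcam1 encodes an adhesion molecule for leukocytes that activated endothelium and tubule cells in failed repair display. It was at 1.55, 1.75, 2.03 and 1.80 in the TBC1D4-deficient and at 1.95, 1.63, 1.82 and 1.55 in the wild-type arrays, replicates 1 to 4 in order. The lowest value of each group was the same at this precision, and the mean of Vcam1 exceeded 67.3% of the receptor probe sets. The difference was 0.04 (-0.21 to 0.30). Endothelial cells can also express Vcam1, and all 13 of their markers lay above the receptor level and had differences below 0 by genotype. None passed the threshold, but 8 of the 13 had an unadjusted limma p below 0.05, against 2.9% of all probe sets, and 2, Tek and Ptprb, did not overlap between genotypes, against 1.85% of all probe sets. Markers of 1 cell type can vary together, so the 8 are not independent. The brightest, Emcn, Ehd3 and Eng, stood at -0.46, -0.07 and -0.41. In the lower and upper ranges of the second description number, Emcn averaged 5.04 and 5.50, Ehd3 4.96 and 4.85, and Eng 3.97 and 4.48. Range and genotype are partly mixed here too. The mean of the list, with each gene centred on its own average, was -0.38 to 0.0013 in TBC1D4-deficient and 0.03 to 0.21 in wild-type arrays. Its part in the Vcam1 values was not tested.

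Krt20 encodes a keratin of urothelium and gut that appears in badly damaged tubules. It was at 1.67, 1.60, 1.53 and 1.86 in the TBC1D4-deficient and at 1.51, 1.62, 1.96 and 1.63 in the wild-type arrays. Both groups spanned almost the same range, and the mean exceeded 60.7% of the receptor probe sets. The difference was -0.02 (-0.25 to 0.22). Of 5 urothelial markers, Upk1b, Upk3a and Psca were likewise not above the receptor level on average. For Havcr1, Vcam1 and Krt20, a change that stayed within the dim range would not be detectable with these probe sets.

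**Figure D2:**
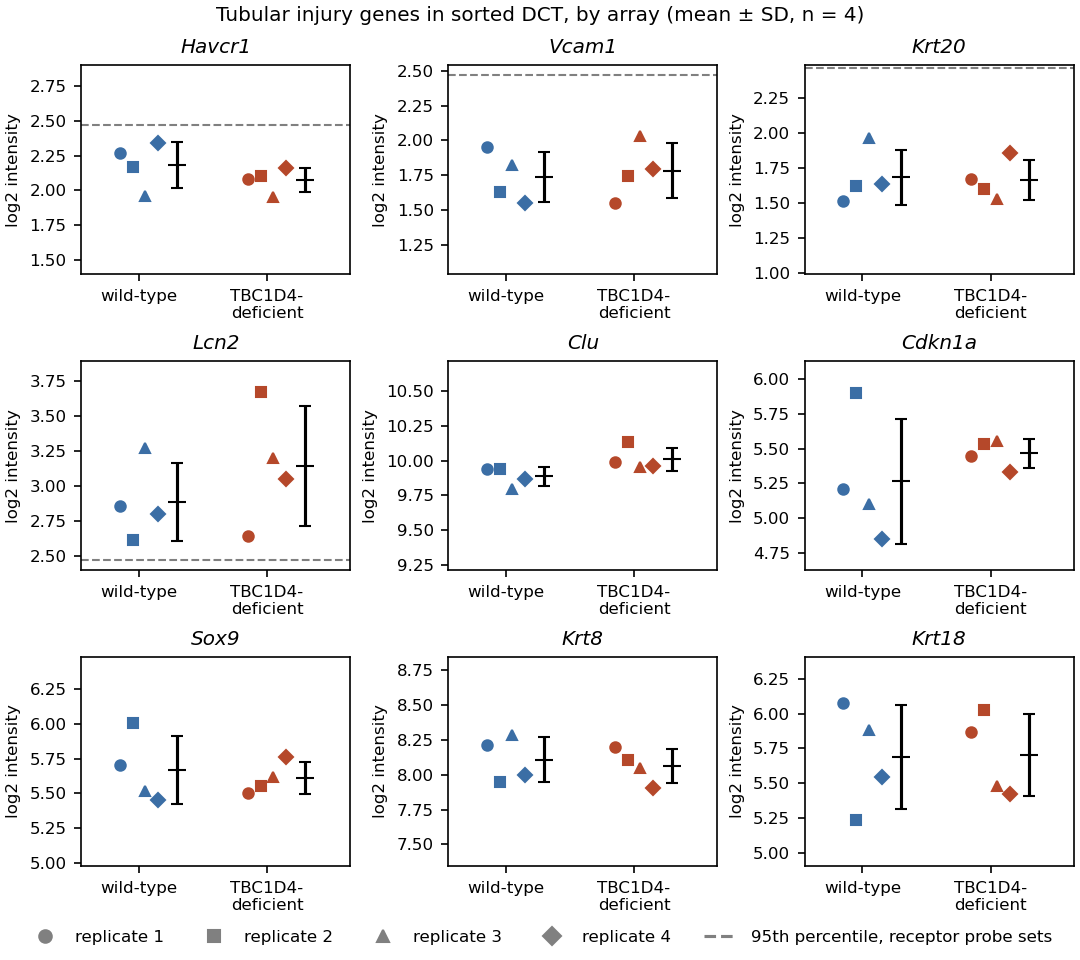
Log2 intensity (y axis) of the 9 injury genes in each array of wild-type (blue) and TBC1D4-deficient (red) tubules. Markers give the replicate, black bars the mean ± SD of 4 arrays, the dashed line the receptor level of 2.47, and each panel spans the same height on the log2 scale; Havcr1, Vcam1 and Krt20 stay below the dashed line in all arrays, and Lcn2, Cdkn1a and Krt18 spread most.

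Of the secreted proteins, Lcn2 was little above the receptor level and had the largest SD of the 9 genes. Clu lay far above that level and had the smallest SD of the 9. Lcn2 encodes NGAL, which binds iron-carrying siderophores. It was at 2.64, 3.68, 3.20 and 3.05 in TBC1D4-deficient replicates 1 to 4 and at 2.86, 2.61, 3.27 and 2.80 in wild-type replicates 1 to 4. TBC1D4-deficient replicate 2 was the highest of the 8, and the lowest arrays of both groups were nearly equal. The means were 3.14 ± 0.43 and 2.89 ± 0.28 (SD, n = 4 each), with a difference of 0.26 (95% interval -0.19 to 0.71; exact permutation p = 0.371, two-sided). The SD of Lcn2 over the 8 arrays, 0.36, exceeded that of 97.8% of 3316 probe sets within 0.5 of its mean. The difference was 0.18 within the arrays numbered 5 to 8, 0.33 within 9 to 12, and 0.08 without TBC1D4-deficient replicate 2. Without TBC1D4-deficient replicate 1 it was 0.42, with an unadjusted limma p of 0.0404 and an adjusted p of 0.9987. With the range of the second description number as a covariate the difference was 0.53, with an unadjusted limma p of 0.0129 and an adjusted p of 0.9994.

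Each injury gene was set against the mean of 4 marker lists over the 8 arrays, 36 relations in all, and 0 passed after adjustment. The 2 with an exact permutation p below 0.05 for Pearson's r both involved Lcn2. With immune cell markers Lcn2 had r = 0.74 (exact permutation p = 0.0341, adjusted p = 0.852) and rho = 0.60 (exact permutation p = 0.132, adjusted p = 0.992). Without TBC1D4-deficient replicate 2 and wild-type replicate 2 this r was 0.30, so the relation rests on those arrays. With thick ascending limb markers Lcn2 had r = 0.72 (exact permutation p = 0.0473, adjusted p = 0.852) and rho = 0.81 (exact permutation p = 0.0218, adjusted p = 0.392), and r was 0.89 without the same arrays. Among immune markers, the brightest were Csf1r, C1qa and Cd68, with differences of 0.01, 0.08 and 0.07, and 7 of 13 were not above the receptor level, among them Ptprc (CD45), Itgam and the neutrophil genes S100a8 and S100a9. The genes whose 8 values were most like those of Lcn2, of 12413 above the receptor level, were Bmp6 (r = 0.98), Acot3 (0.94) and Plod3 (0.93), given as a description.

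Clu encodes clusterin, a secreted chaperone that rises in many forms of kidney damage. It was at 9.99, 10.13, 9.95 and 9.96 in TBC1D4-deficient and at 9.94, 9.94, 9.80 and 9.87 in wild-type replicates 1 to 4. Every TBC1D4-deficient array was above every wild-type array, though the closest pair differed by less than the spread within a group. This was the only one of the 9 injury genes whose groups did not overlap, against 1.85% of all probe sets. The means were 10.01 ± 0.08 and 9.89 ± 0.07 (SD, n = 4 each). Over the 8 arrays the SD of Clu, 0.096, exceeded that of 79.1% of 330 probe sets within 0.5 of its mean. The difference of 0.12 had a 95% interval of -0.03 to 0.27, or 0.98-fold to 1.20-fold. The exact permutation p was 0.0286, the smallest that 4 against 4 arrays can give, and the unadjusted limma p was 0.0966. The difference was 0.09 within arrays 5 to 8 and 0.15 within 9 to 12. The separation ended under quantile normalization and under median centring. Clu and the endothelial marker mean, which also did not overlap between genotypes, had rho = -0.93 (exact permutation p = 0.00223, adjusted p = 0.0804) and r = -0.53 (exact permutation p = 0.174, adjusted p = 0.96). Without TBC1D4-deficient replicate 2 and wild-type replicate 3 r was -0.83. Because Clu and this mean separate by genotype in opposite directions, rho, r and their p partly restate the genotype split. They do not test a relation within a genotype. The part of endothelial RNA in the Clu values was not tested.

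Cdkn1a and Sox9, regulators of the response to damage, differed less between genotypes than among the wild-type arrays. Cdkn1a encodes p21, an inhibitor of cyclin-dependent kinases that p53 induces. It was at 5.44, 5.53, 5.55 and 5.33 in TBC1D4-deficient replicates 1 to 4 and at 5.21, 5.90, 5.10 and 4.85 in wild-type replicates 1 to 4. All TBC1D4-deficient values lay inside the wild-type range, above 3 of the wild-type arrays and below replicate 2. The means were 5.47 ± 0.10 and 5.27 ± 0.45 (SD, n = 4 each), with a difference of 0.20 (95% interval -0.21 to 0.61; exact permutation p = 0.457). Whether the spread differs between genotypes was not tested. The difference was -0.06 within arrays 5 to 8 and 0.46 within 9 to 12. Leaving out 1 array at a time gave 0.06 to 0.41. The difference was 0.41 without wild-type replicate 2, with an unadjusted limma p of 0.00223 and an adjusted p of 0.9998. It was 0.06 without wild-type replicate 4, with an unadjusted limma p of 0.728 and an adjusted p of 0.9997. With the range of the second description number as a covariate it was 0.0099, with an unadjusted p of 0.9585 and an adjusted p of 0.9994.

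RefSeq (GRCm38.p6) lists starts of Cdkn1a in 2 windows, and the 250 bases before each are shown because the p53 targets are described next. Capitals mark a match, on either strand, to TATAA (22.8% of 32851 promoter windows of this length hold it), GGGCGG (32.7%) or the p53 decamer motif (7.13%).
Cdkn1a, upstream start, plus strand, chr17:29090729-29090978: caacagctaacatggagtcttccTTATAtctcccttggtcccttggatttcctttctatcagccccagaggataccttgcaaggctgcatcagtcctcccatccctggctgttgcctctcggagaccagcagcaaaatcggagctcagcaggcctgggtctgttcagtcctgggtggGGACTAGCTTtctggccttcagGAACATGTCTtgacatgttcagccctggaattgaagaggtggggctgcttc
Cdkn1a, downstream start, plus strand, chr17:29093519-29093768: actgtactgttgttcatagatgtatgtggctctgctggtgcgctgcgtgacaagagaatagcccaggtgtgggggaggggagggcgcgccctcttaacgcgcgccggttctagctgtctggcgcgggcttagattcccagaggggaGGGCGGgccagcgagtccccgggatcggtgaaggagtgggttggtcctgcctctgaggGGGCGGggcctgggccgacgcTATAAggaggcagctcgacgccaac
In the upstream window the p53 decamer matched at 73 to 64 and at 51 to 42 bases before the start, and TATAA matched on the other strand. The downstream window held 2 matches to GGGCGG, and TATAA at 25 to 21 bases before the start. A match describes the letters only, and no binding was measured.

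Of 19 measured genes of Trp53 targets, 13 lay above and 6 below 0, 0 passed in either direction, and the median difference was 0.03. The brightest were Ccng1, at 8.82 ± 0.03 in TBC1D4-deficient and 8.81 ± 0.08 in wild-type arrays, Ei24, at 8.34 ± 0.04 and 8.37 ± 0.04, and Btg2, an antiproliferative gene, at 7.96 ± 0.03 and 7.93 ± 0.76 (SD, n = 4 each). Btg2, like Cdkn1a, had the larger SD in wild-type arrays. Immediate early genes, which also respond to tissue dissociation, did so as well: Dusp1, the brightest, had an SD of 0.27 in TBC1D4-deficient and 0.55 in wild-type arrays, Fos of 0.21 and 0.76, and Jun of 0.13 and 0.85. The mean of the 13 immediate early genes was -0.14 to 0.02 in TBC1D4-deficient arrays and 0.91, 0.25, -0.57 and -0.38 in wild-type replicates 1 to 4. Of these genes 4 lay above and 9 below 0, 0 passed, and the median difference was -0.09. Among wild-type arrays, replicate 2 had the highest Cdkn1a and replicate 1 the highest immediate early mean. For both measures, wild-type replicates 1 and 2 stood above replicates 3 and 4. The part of dissociation in the Cdkn1a values was not tested. The genes whose values were most like those of Cdkn1a were Baiap2l2 (r = 0.97), Xylt1 (0.95) and Rab9b (0.94). They are the top of a search over 8 arrays and 12413 genes, given as a description.

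Sox9 encodes a transcription factor that surviving tubule cells switch on during repair. It was at 5.50, 5.55, 5.62 and 5.76 in TBC1D4-deficient and at 5.70, 6.00, 5.52 and 5.46 in wild-type replicates 1 to 4. Wild-type arrays held both the highest and the lowest value, and the groups overlapped. The difference was -0.06 (95% interval -0.32 to 0.20), and -0.07 and -0.05 within arrays 5 to 8 and 9 to 12. Wild-type replicate 2 was the highest array for Sox9 and for Cdkn1a, and without it the Sox9 difference was 0.05. With the range of the second description number as a covariate it was -0.19. Over the 8 arrays Sox9 and Cdkn1a had r = 0.69 (exact permutation p = 0.0584, adjusted p = 0.941) and rho = 0.57 (exact permutation p = 0.151, adjusted p = 0.878). Without wild-type replicate 2 and TBC1D4-deficient replicate 4 r was 0.39.

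Krt8 and Krt18 encode the keratin pair of simple epithelia, a type II and a type I chain that polymerise together, and injured tubules make more of both. In RefSeq they lie on chromosome 15 with 2 genes between them, of which 0 are protein-coding. Krt8 was at 8.20, 8.10, 8.04 and 7.91 in TBC1D4-deficient and at 8.21, 7.95, 8.28 and 8.00 in wild-type replicates 1 to 4. Krt18 was at 5.87, 6.03, 5.48 and 5.42 in TBC1D4-deficient and at 6.08, 5.23, 5.88 and 5.55 in wild-type replicates 1 to 4. The 4 arrays with the most Krt18 were also the 4 with the most Krt8, namely TBC1D4-deficient replicates 1 and 2 and wild-type replicates 1 and 3. The genotypes overlapped for both genes. The log2 difference was -0.05 (95% interval -0.25 to 0.16) for Krt8 and 0.02 (-0.41 to 0.44) for Krt18. Within arrays 5 to 8 it was -0.14 and -0.11, and within 9 to 12 it was 0.05 and 0.14. With the range of the second description number as a covariate it was 0.02 and 0.28.

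The promoters are shown because no protein-coding gene lies between these genes and their products pair. Capitals mark a match to TATAA on either strand. Neither window held GGGCGG, the GC box, or the AP-1 motif TGANTCA, which 6.75% of windows held.
Krt8, minus strand, chr15:102004343-102004592: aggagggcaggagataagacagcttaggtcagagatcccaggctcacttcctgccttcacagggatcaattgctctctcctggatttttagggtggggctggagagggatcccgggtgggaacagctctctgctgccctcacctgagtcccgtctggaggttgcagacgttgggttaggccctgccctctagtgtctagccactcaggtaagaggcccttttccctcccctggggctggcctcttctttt
Krt18, plus strand, chr15:102027966-102028215: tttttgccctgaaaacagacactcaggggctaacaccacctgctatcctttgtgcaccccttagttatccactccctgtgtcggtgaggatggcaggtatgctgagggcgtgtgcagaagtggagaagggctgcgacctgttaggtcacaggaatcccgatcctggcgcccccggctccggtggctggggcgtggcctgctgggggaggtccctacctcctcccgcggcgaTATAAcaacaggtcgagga
TATAA matched in the Krt18 window at 19 to 15 bases before the start and not in the Krt8 window, which says nothing of other letters or of bases outside it.

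Among all 36 pairs of the 9 injury genes, Krt8 and Krt18 were the only pair with an exact permutation p below 0.05 for Pearson's r, and 0 pairs passed after adjustment. Their r was 0.83 (exact permutation p = 0.0176, adjusted p = 0.635) and rho 0.83 (exact permutation p = 0.0154, adjusted p = 0.554). Without TBC1D4-deficient replicate 4 and wild-type replicate 3 r was 0.89. The sets of 4 arrays numbered 5 to 8 and 9 to 12 are too small for an r of their own. The genes whose values were most like those of Krt18 were Aldoc (r = 0.98), Fuz (0.97) and Scg5 (0.96) of 12413, and Krt8 stood at rank 123. These are the top of a search over 8 arrays, given as a description. Intercalated cell markers varied between the same arrays, and the brightest, Atp6v0d2, Slc4a1 and Rhbg, had differences of -0.33, -0.48 and -0.25. Their mean was 0.40, 0.38 and 0.46 in TBC1D4-deficient replicate 2 and wild-type replicates 1 and 3, -0.32 in TBC1D4-deficient replicate 1, and -0.33 to -0.11 in the arrays with less Krt18. The part of intercalated cells in the keratin values was not tested.

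**Figure D3:**
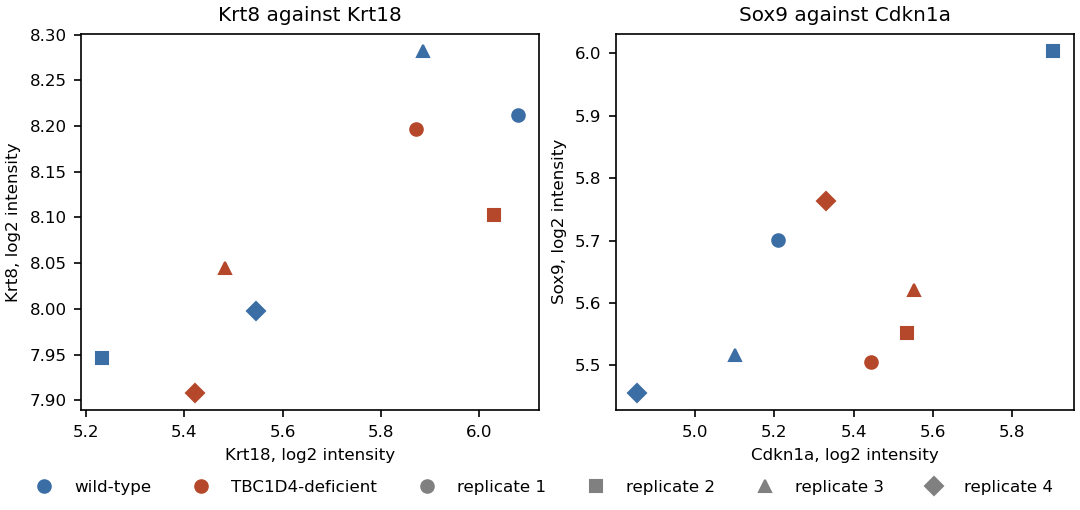
Log2 intensity in the 8 arrays of Krt8 (y axis) against Krt18 (x axis) and of Sox9 (y axis) against Cdkn1a (x axis), with colour for genotype and marker for replicate. The 4 arrays with the most Krt18 are the 4 with the most Krt8 (r = 0.83), and wild-type replicate 2 stands highest for both Sox9 and Cdkn1a.

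Other genes of the injury response were spread around 0 as well, and 0 of them passed at an adjusted p below 0.05 in either direction. Of 38 other measured genes of injured or failed-repair tubules, 16 lay above and 22 below 0, with a median of -0.04, and 14 were not above the receptor level, among them the protease inhibitor Timp1, the hyaluronan receptor Cd44 and the fibrinogen chains Fga, Fgb and Fgg. The brightest were Cd24a, at a difference of 0.00057 (95% interval -0.18 to 0.18), S100a11 at -0.06 and S100a10, an annexin A2 partner, at 0.20 (0.0080 to 0.39). S100a10, at 8.58 ± 0.11 against 8.38 ± 0.14 (SD, n = 4 each), was the only gene of the 38 with an unadjusted limma p below 0.05. The share over all probe sets was 2.9%. Of 20 genes of NF-kB and the acute phase, a pathway that controls Lcn2 and Vcam1, 6 lay above and 14 below 0 (median -0.04), with Stat3 at -0.0063, Rela at 0.10 and Nfkbia at -0.19. The cytokines Il6, Tnf and Il1b and the chemokine Ccl2 were not above the receptor level.

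Of 18 other epithelial keratins and genes of desmosomes and keratin linkers, 10 lay above and 8 below 0 (median 0.01). Jup (plakoglobin), Krt7 and the desmosomal linker Dsp stood at -0.03, 0.0073 and 0.04. Plec, which encodes plectin and was picked with its values in view, had a difference of 0.23 (95% interval 0.0060 to 0.45). It was the only gene of the 18 with an unadjusted limma p below 0.05, against 2.9% of all probe sets. Krt19, Krt23, Krt5 and Krt17 were not above the receptor level. Of 10 receptors and partners of Spp1, Vcam1, Lcn2 and Havcr1, 7 lay above and 3 below 0 (median 0.01), and the brightest, the integrin chains Itgav, Itgb5 and Itgb1, stood at 0.09, 0.0069 and 0.06. Itga4, a chain of the leukocyte receptor for VCAM1, was not above the receptor level.

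The mean of the proximal tubule markers, from the segment in which Havcr1, Vcam1 and Krt20 are best known, ranged over 1.75 on the log2 scale between arrays. In TBC1D4-deficient replicates 1 to 4 it stood at -1.04, 0.26, 0.06 and 0.11, and at -0.51, -0.30, 0.71 and 0.71 in wild-type replicates 1 to 4. All 17 markers lay below 0 by genotype, with 0 past the threshold and a median difference of -0.27, and Slc34a1, the phosphate transporter, averaged 9.47 ± 0.55 against 9.73 ± 0.54, Kap 9.25 ± 0.57 against 9.47 ± 0.43 and Cyp4b1 8.65 ± 0.44 against 8.80 ± 0.36 (SD, n = 4 each). Over the same arrays Havcr1, Vcam1 and Krt20 ranged over 0.39, 0.48 and 0.45, all below the receptor level. A change within the dim range would not be detectable, so these ranges do not show whether these genes follow the markers.

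**Figure D4:**
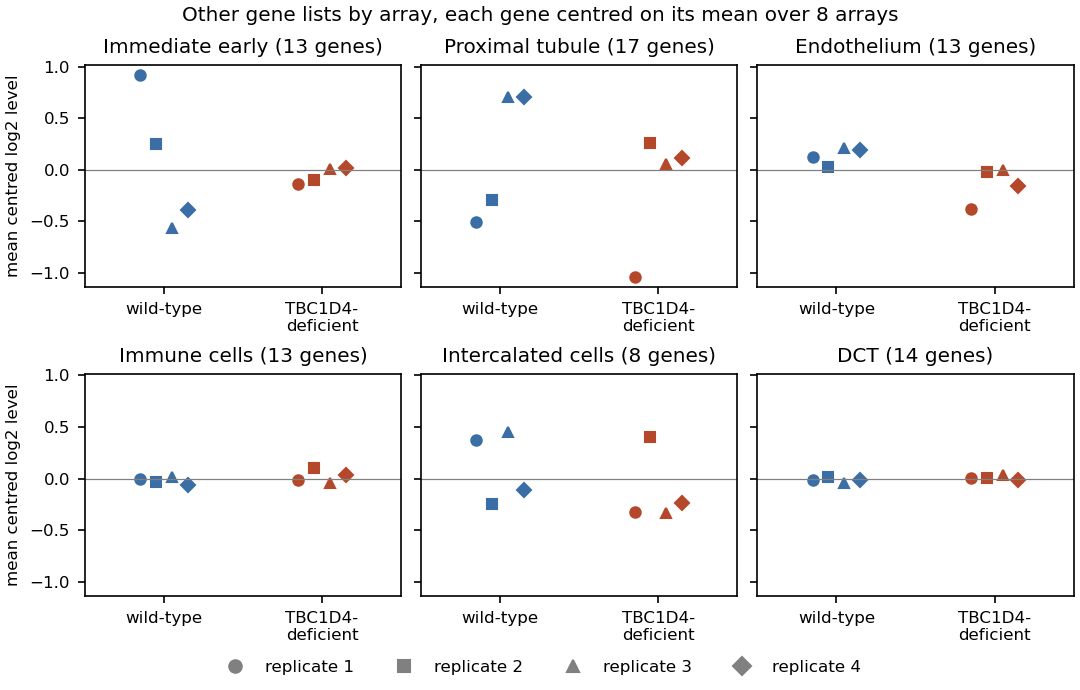
Mean centred log2 level (y axis) of 6 gene lists in each wild-type (blue) and TBC1D4-deficient (red) array, after subtracting from each gene its average of the 8 arrays, with markers for replicates. Proximal tubule genes span -1.04 to 0.71 over the 8 arrays, immediate early genes span -0.57 to 0.91 in wild-type and -0.14 to 0.02 in TBC1D4-deficient arrays, intercalated cell genes stand high in 3 arrays, and DCT genes stay within -0.04 to 0.04.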

How the data were processed

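Sorted DCT of 8 mouse samples were read on 1-colour arrays from 100 ng of RNA. The deposited table held linear probe set intensities for 28371 probe sets, made with Affymetrix Power Tools per the submitters' processing notes, which give no version, summarisation or normalization; a step that forced equal distributions would hide a change shared by most genes. The table was used as log2 of the deposited intensities, with no pseudocount, filter or further normalization. Genotypes, taken from the titles, were compared in R 4.3.3 by limma 3.58.1 (lmFit and eBayes, two-sided, without covariates) over 23039 probe sets with at least 1 symbol, with Benjamini-Hochberg adjustment; the scripts were tested on simulated data. Single genes were also compared by an exact permutation test over 70 assignments, and correlations over 40320 pairings. P-values reflect only the spread among these samples, which may be technical.

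The members and lists were chosen with earlier results of these data known. Named were all members, Tbc1d4, up to 3 of the brightest genes of a list, and the 3 genes most like each of the 3 most variable members above the receptor level; genes given as not above the receptor level, and Plec, were picked after their values were seen. Symbols came from the platform annotation (21158 probe sets with 1 symbol, 1881 with several, 5332 with none); gene identifiers of 21128 matched RefSeq (GRCm38.p6), from which chromosomes, gene order and promoters were taken. Promoter sequences were found for 7 of the 10 members. Spp1 had no named probe set in the annotation used. Alternatives were other normalizations, pseudocounts, filters, row sets, covariates, blocks and leaving out each array.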

Additional observations from a re-analysis of the deposited data

How the results depend on the processing

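Under all 25 alternative settings 0 injury genes and 0 genes of the other lists passed, and Tbc1d4 was the only call. Of 218 recomputed differences, 197 kept their direction and none was called. The blocks, filters, row sets and trended robust prior left each difference as it was, so its direction could not turn under them. The direction of small differences turned for Krt8 (0.021 with the range of the second description number as a covariate, 0.045 within arrays 9 to 12) and Krt18 (-0.11 within 5 to 8, -0.0051 with the proximal tubule mean as a covariate). The same held for Krt20 (0.063 within 9 to 12, 0.0033 with median centring, 0.017 with the proximal tubule mean) and Vcam1 (-0.10 within 9 to 12). Cdkn1a, with the larger difference of 0.20 over all 8 arrays, also turned (-0.060 within 5 to 8). The cause was not tested. Leaving out 1 array gave -0.18 to -0.05 for Havcr1, 0.08 to 0.42 for Lcn2, -0.10 to 0.011 for Krt8, -0.13 to 0.15 for Krt18, -0.082 to 0.076 for Krt20, -0.039 to 0.12 for Vcam1, 0.08 to 0.14 for Clu, -0.13 to 0.052 for Sox9, 0.06 to 0.41 for Cdkn1a, and -0.031 to 0.11 for their median. The count with an unadjusted limma p below 0.05 was 1 with the range of the second description number or the proximal tubule mean as a covariate (Lcn2 in both). It was also 1 within arrays 9 to 12 (Cdkn1a), and with a pseudocount of 8 and a trended robust prior (Clu in both). In these settings 636 to 732 of 23039 probe sets had such a p. Without 1 array the count was 0 to 1 of the 9 genes, beside 583 to 875 of 23039 probe sets. The gene was Lcn2 without TBC1D4-deficient replicate 1, Cdkn1a without wild-type replicate 2 and Havcr1 without wild-type replicate 3. Groups that did not overlap numbered 0 of 9 under quantile normalization and median centring (2.09% and 1.72% of all probe sets), 1 within arrays 5 to 8 and 3 within 9 to 12 (2 against 2 arrays; 32.2% and 29.6% of all probe sets), and 1 to 2 without 1 array (3.71% to 5.07%). Of the 36 pairs, 0 passed with or without the 2 outermost arrays. With the replicate number as a block, 0 injury genes and 1 gene in all passed. The labels used here do not state whether that number pairs the arrays. Same-numbered arrays' deviations correlated at 0.40, -0.19, 0.04 and 0.01, and 2 of 8 arrays correlated best with their own number.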
